A study of Mus musculus with 16 samples.

Results

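The genes described here make up the protein folding and translocation machinery of the endoplasmic reticulum (ER) together with the unfolded protein response that adjusts it. The list holds 48 genes chosen by function, and 46 of them were measured by a probe set that lists no other gene, out of 18193 such genes on the array. Srp54a and Sec61g had only probe sets that list several genes, 3 and 1 respectively, and have no value here. The brightest probe set of a gene, by its mean over the 16 arrays, stands for the gene.

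Liver RNA of 16 male mice, 12-20 weeks old, was hybridized to Affymetrix mouse genome 430 2.0 arrays, with 1 array per mouse. Wild-type mice of strain 129S1/SvImJ and PPARα-null mice of strain 129S4/SvJae, which lack a working PPARα in all tissues and are called knockout below, received control food or food with 0.1% Wy14643 for 5 days. Wy14643 is a synthetic agonist of PPARα, a nuclear receptor that controls hepatic lipid metabolism. Each of the 4 groups held 4 mice, and because the substrains differ, genotype and substrain cannot be told apart in any comparison of the genotypes, the difference of their responses included.

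The ER is the entry point of secreted and membrane proteins, and hepatocytes, which secrete most plasma proteins, hold much of it. A nascent chain is brought to the membrane by the signal recognition particle, threaded through the Sec61 channel, freed of its signal peptide, glycosylated, and folded by chaperones and disulfide isomerases. Chains that do not fold are sent back to the cytosol for degradation. When unfolded chains pile up, the membrane sensors IRE1α (Ern1) and ATF6 raise the transcription of this machinery, IRE1α by splicing the mRNA of the transcription factor XBP1.

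The members were bright in this tissue. Of the 46, 44 had a mean log2 intensity above 6, compared with 28.4% of all genes, and all 46 lay above the highest array median. Sdf2l1 and Derl3 were the exceptions below 6. Hepatocyte markers such as Alb, with group means of 13.92 to 13.98, were bright in all groups. Ppara itself read 9.77 to 10.07 in wild type on control food and 8.82 to 9.71 in knockout on control food, so the probe set still gave signal in the knockout and is a weak check of the genotype labels.

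One array stands apart. Replicate 3 of wild type on Wy14643 held transcripts of the exocrine pancreas. Carboxypeptidase A1 (Cpa1) read 7.70 there and 1.48 to 1.60 on the other 3 arrays of the group, and chymotrypsinogen B1 (Ctrb1) read 8.45 against 1.17 to 1.799. Trypsin 2 (Prss2) and carboxyl ester lipase (Cel) were highest on the same array, at 8.49 and 7.56. Elastase 1 (Cela1) read 8.53 there and 6.49 to 6.82 on the other 3 arrays of its group, but had means of 9.33 to 9.47 in the other groups. Acinar cells of the pancreas are rich in ER, so the counts below are also given without this array. The mean of the 46 members was 8.671 on it and 8.568 to 8.669 on the other 3 arrays of its group.

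**Figure D1:**
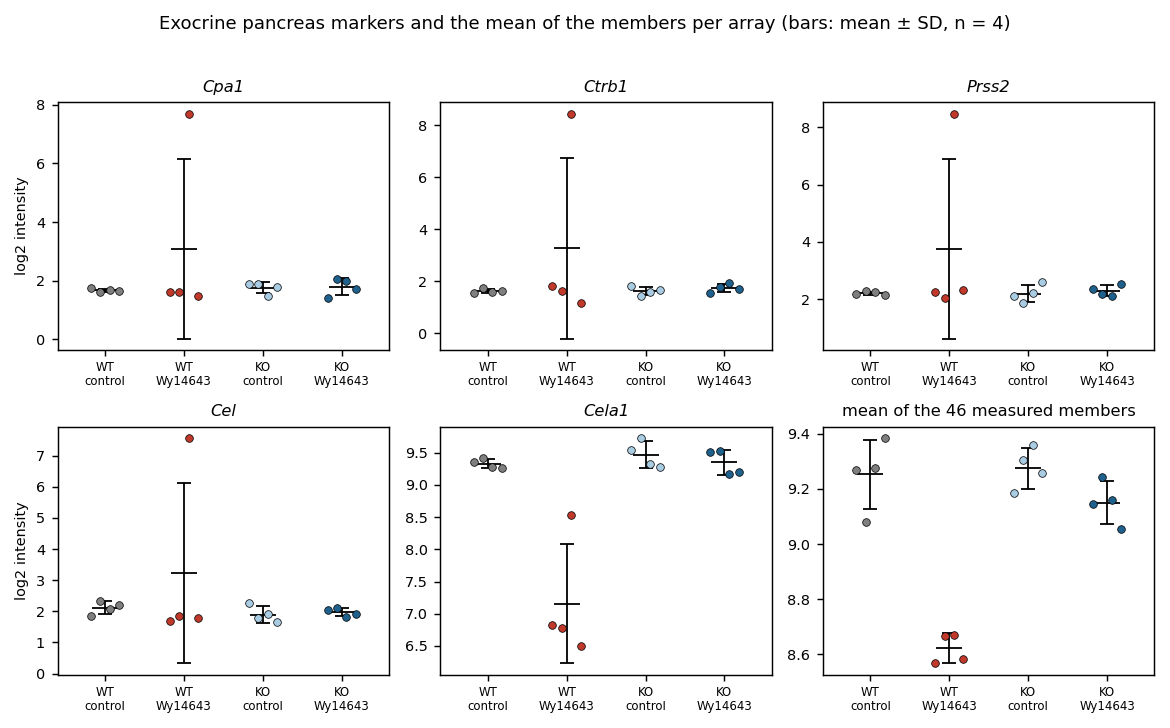
Log2 intensity of 5 exocrine pancreas markers and the mean log2 intensity of the 46 measured members on each array (points), with the mean ± SD of each group of 4. Replicate 3 of wild type on Wy14643 is far above its group for the pancreas markers, whereas the mean of the members on all 4 arrays of that group, 8.57 to 8.67, lies below the other 12 arrays.

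In wild type, Wy14643 lowered 19 of the 46 members and raised none (limma, a Benjamini-Hochberg adjusted p below 0.01 and more than 1.5-fold). Of all genes, 6.74% were called lower and 7.72% higher by the same rule, and of genes with a mean above 6, 15.9% and 12.4%. The members' median log2 difference was -0.51, compared with -0.03 for all genes and -0.04 for those above 6, and 42 of 46 differences were negative. The arrays of the 2 wild-type groups did not overlap for 33 members, against 29.1% of all genes. Among the 5170 genes with a mean above 6, like most members, they did not overlap for 3073. For 27 members all 4 arrays of wild type on Wy14643 lay below the other 12, which was so for 9.16% of genes. For 1 member, Spcs1, they lay above, against 10.6% of genes. Both shares are over all genes, and those of genes with a mean above 6 were not counted. Without replicate 3 of wild type on Wy14643 the count was 21 lower and 0 higher, with a median of -0.53, and the shares of all genes were 6.44% and 7.56%. Counts per role below are to be read beside the shares called of all genes and of those with a mean above 6.

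**Figure D2:**
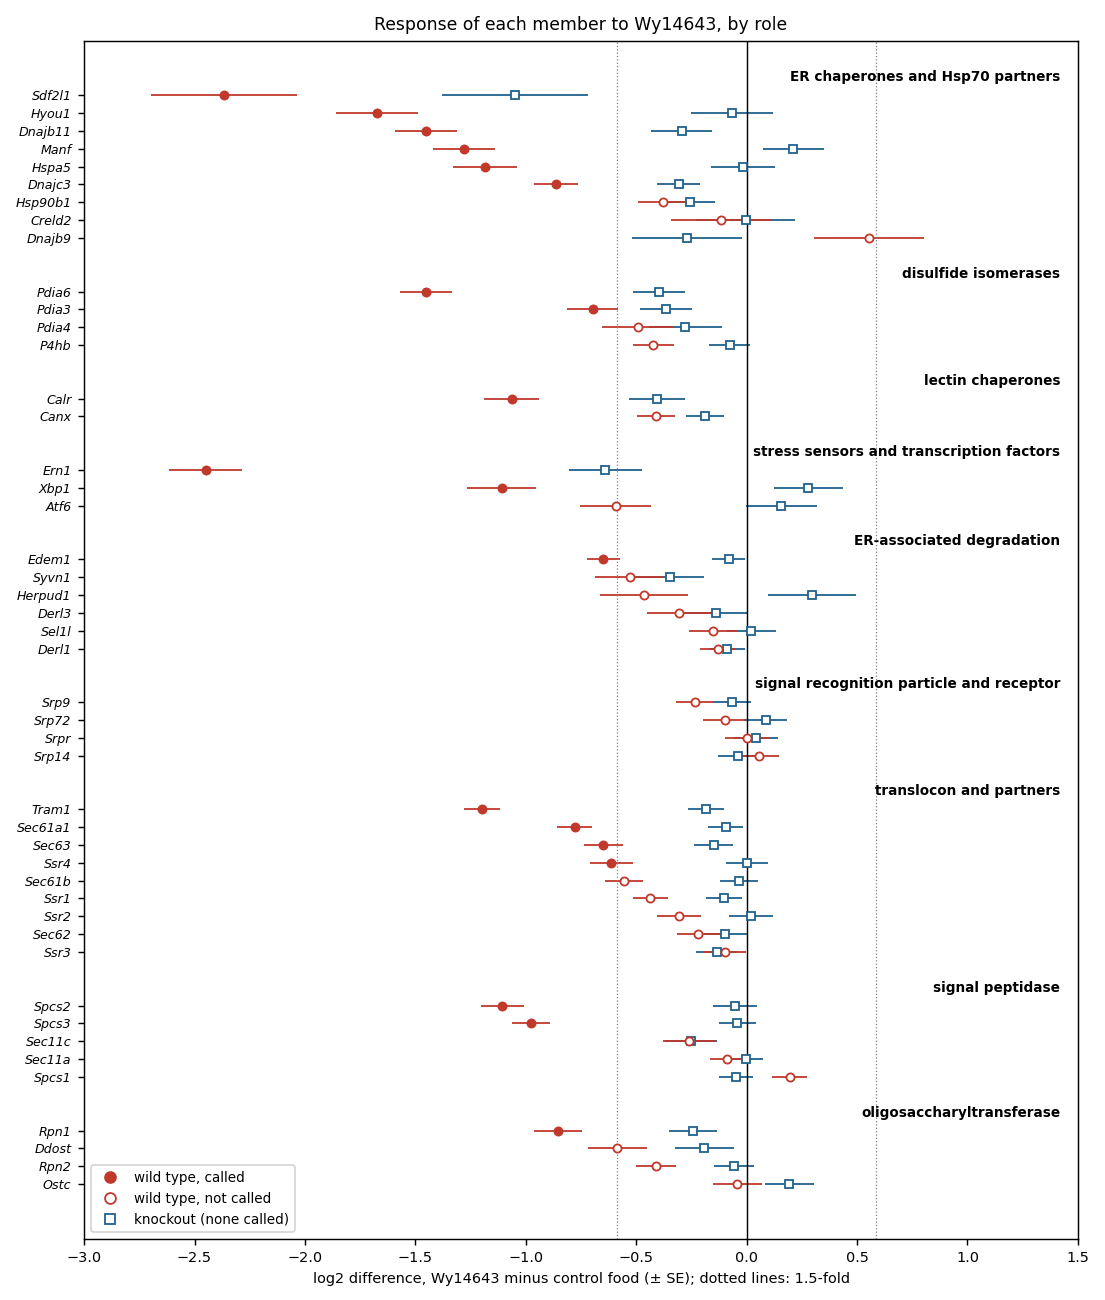
Log2 difference between Wy14643 and control food (± SE) for each measured member in wild type (circles, filled where called) and knockout (squares, none called), grouped by role, with 1.5-fold marked by dotted lines. The 19 filled circles all lie on the left, from -0.61 for Ssr4 to -2.45 for Ern1.

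The sensors and transcription factors of the unfolded protein response held the largest decrease of the list. Ern1, which encodes the kinase and RNase IRE1α, read 8.75, 8.73, 8.90 and 9.16 in wild type on control food and 6.23, 6.40, 6.71 and 6.40 on Wy14643. In knockout it read 8.96, 9.20, 8.91 and 9.06 on control food and 8.65, 8.47, 8.63 and 7.81 on Wy14643. All 4 arrays of wild type on Wy14643 were below every other array, and the knockout arrays on Wy14643 were also below those on control food. The wild-type difference was -2.45 ± 0.17 (SE), a 5.46-fold decrease (limma, adjusted p = 4.8e-09), and the knockout difference was -0.64 with an adjusted p of 0.179. Ern1 had 5 probe sets, of which 3 were called lower, with differences from -2.45 to -0.07.

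Xbp1, whose spliced mRNA encodes the transcription factor downstream of IRE1α, read 10.93, 10.66, 10.57 and 10.92 in wild type on control food and 9.62, 10.01, 9.86 and 9.16 on Wy14643. The knockout arrays read 10.59, 10.86, 10.78 and 10.99 on control food and 11.11, 10.88, 11.23 and 11.12 on Wy14643. The treated wild-type mice were thus the lowest of all 16, with no overlap. The wild-type difference was -1.11 ± 0.16 (adjusted p = 3.87e-05), all 4 probe sets of the gene were called lower, and the knockout difference was 0.28 (adjusted p = 0.627). The array does not separate spliced from unspliced Xbp1 mRNA here.

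Atf6, the sensor that is cleaved in the Golgi to release a transcription factor, was less clear. It read 6.18, 6.42, 6.54 and 6.55 in wild type on control food, 5.56, 5.47, 6.31 and 5.98 on Wy14643, 6.67, 6.34, 6.80 and 6.47 in knockout on control food and 6.80, 6.499, 6.83 and 6.78 in knockout on Wy14643. Replicate 3 on Wy14643, the array with pancreas transcripts, overlapped the wild-type controls, whereas none of the 4 overlapped the treated knockouts. The wild-type difference of -0.59 ± 0.16 did not pass (adjusted p = 0.0134) and was -0.75 without that replicate (adjusted p = 0.00127). Between genotypes on Wy14643 the difference was called at -0.90 ± 0.16 (adjusted p = 0.000454). A dimmer probe set of Atf6 gave 0.53 in wild type, so the direction depends on the probe set.

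Of the 9 ER chaperones and partners of the ER Hsp70, 6 were lower in wild type on Wy14643. Hspa5, which encodes BiP, the ER Hsp70 itself, read 12.05, 11.82, 12.03 and 12.12 in wild type on control food and 10.51, 11.09, 11.13 and 10.55 on Wy14643. In knockout it read 11.89, 12.01, 12.17 and 11.93 on control food and 11.91, 12.16, 12.12 and 11.74 on Wy14643. The other 3 groups covered one another and the treated wild-type arrays fell clear of them. The difference was -1.19 ± 0.14, a 2.28-fold decrease (limma, adjusted p = 7.54e-06), and -0.02 in knockout with a 95% interval of -0.32 to 0.29. Without replicate 3 of wild type on Wy14643 the wild-type difference was -1.29.

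Hyou1, a large Hsp70-related protein that serves as a nucleotide exchange factor for BiP, read 7.004, 6.996, 7.36 and 7.85 in wild type on control food and 5.25, 6.03, 5.85 and 5.38 on Wy14643. Its knockout values were 6.89, 7.24, 7.17 and 7.10 on control food and 7.06, 7.08, 7.11 and 6.88 on Wy14643. The 8 knockout arrays lay together near the wild-type controls. The wild-type difference was -1.68 ± 0.19 (adjusted p = 2.46e-06), a 3.19-fold decrease, and all 3 probe sets were called lower.

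Dnajb11, a J-domain co-chaperone that stimulates BiP, read 8.99, 8.41, 8.69 and 8.88 in wild type on control food, 7.23, 7.26, 7.41 and 7.26 on Wy14643, 8.51, 8.67, 8.70 and 8.53 in knockout on control food and 8.36, 8.67, 8.24 and 7.95 in knockout on Wy14643. Dnajc3, another BiP co-chaperone, read 9.37, 9.13, 9.20 and 9.25, then 8.46, 8.496, 8.42 and 8.13, then 9.29, 9.34, 9.30 and 9.47, and 9.17, 8.98, 9.08 and 8.93 in the same order of groups. Both were lowest on all 4 arrays of wild type on Wy14643, and Dnajc3 was also lower without overlap in treated than in control knockouts. Their wild-type differences were -1.45 ± 0.14 (adjusted p = 4.23e-07) and -0.86 ± 0.10 (adjusted p = 3.27e-06), and the knockout differences were -0.29 and -0.31, neither of which passed.

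Manf, a secreted survival factor that is retained in the ER and binds BiP, read 10.14, 9.66, 10.20 and 10.26 in wild type on control food and 8.72, 9.04, 8.74 and 8.64 on Wy14643. Its knockout values were 9.70, 9.93, 10.18 and 9.84 on control food and 10.001, 10.28, 10.19 and 10.02 on Wy14643, so the knockout groups overlapped. The wild-type difference was -1.28 ± 0.14 (adjusted p = 1.83e-06). Sdf2l1, a partner of BiP and Dnajb11, was the dimmest of the called members, with 6.77, 4.73, 5.71 and 6.59 in wild type on control food, 3.65, 3.75, 3.80 and 3.12 on Wy14643, 6.20, 6.79, 6.70 and 6.40 in knockout on control food and 5.49, 5.93, 5.23 and 5.25 in knockout on Wy14643. The treated arrays were below the controls without overlap in both genotypes. The difference was -2.37 ± 0.33 in wild type (adjusted p = 3.29e-05) and -1.05 in knockout (adjusted p = 0.29).

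The other 3 chaperones did not pass. Hsp90b1, the ER Hsp90, had a wild-type difference of -0.38 ± 0.11 (adjusted p = 0.0235), and Creld2 had -0.12 with a 95% interval of -0.59 to 0.36. Dnajb9, a J-domain protein that attenuates IRE1α, had the most positive difference of the list, 0.55 ± 0.25 (adjusted p = 0.145).

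Among the disulfide isomerases, 2 of 4 were lower. Pdia6, which also acts on the IRE1α sensor, read 9.73, 9.31, 9.47 and 9.84 in wild type on control food and 8.06, 8.24, 8.16 and 8.09 on Wy14643. In knockout it read 9.66, 9.75, 9.84 and 9.53 on control food and 9.42, 9.35, 9.07 and 9.37 on Wy14643. The treated wild-type arrays lay well below all others, and the treated knockouts lay just below their controls. The wild-type difference was -1.45 ± 0.12 (adjusted p = 5.35e-08) and the knockout difference was -0.40 (adjusted p = 0.265). Pdia3, the isomerase that works with the lectin chaperones, differed by -0.70 ± 0.12 (adjusted p = 0.000224), while Pdia4 at -0.49 and P4hb at -0.42 were not called.

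Of the 2 lectin chaperones, which hold newly glycosylated chains, the soluble one was called and the membrane-bound one was not. Calr (calreticulin) read 11.83, 11.88, 11.88 and 12.07 in wild type on control food, 10.90, 10.98, 10.81 and 10.71 on Wy14643, 12.00, 12.10, 12.06 and 11.89 in knockout on control food and 11.83, 11.82, 11.60 and 11.18 in knockout on Wy14643. Its wild-type difference was -1.06 ± 0.13 (adjusted p = 5.19e-06) with all 3 probe sets lower, and its knockout difference was -0.41 (adjusted p = 0.282). Canx (calnexin) had a wild-type difference of -0.41, which passed on p (0.0019, limma adjusted) but stayed under 1.5-fold. The difference between these 2 genes was not tested.

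**Figure D3:**
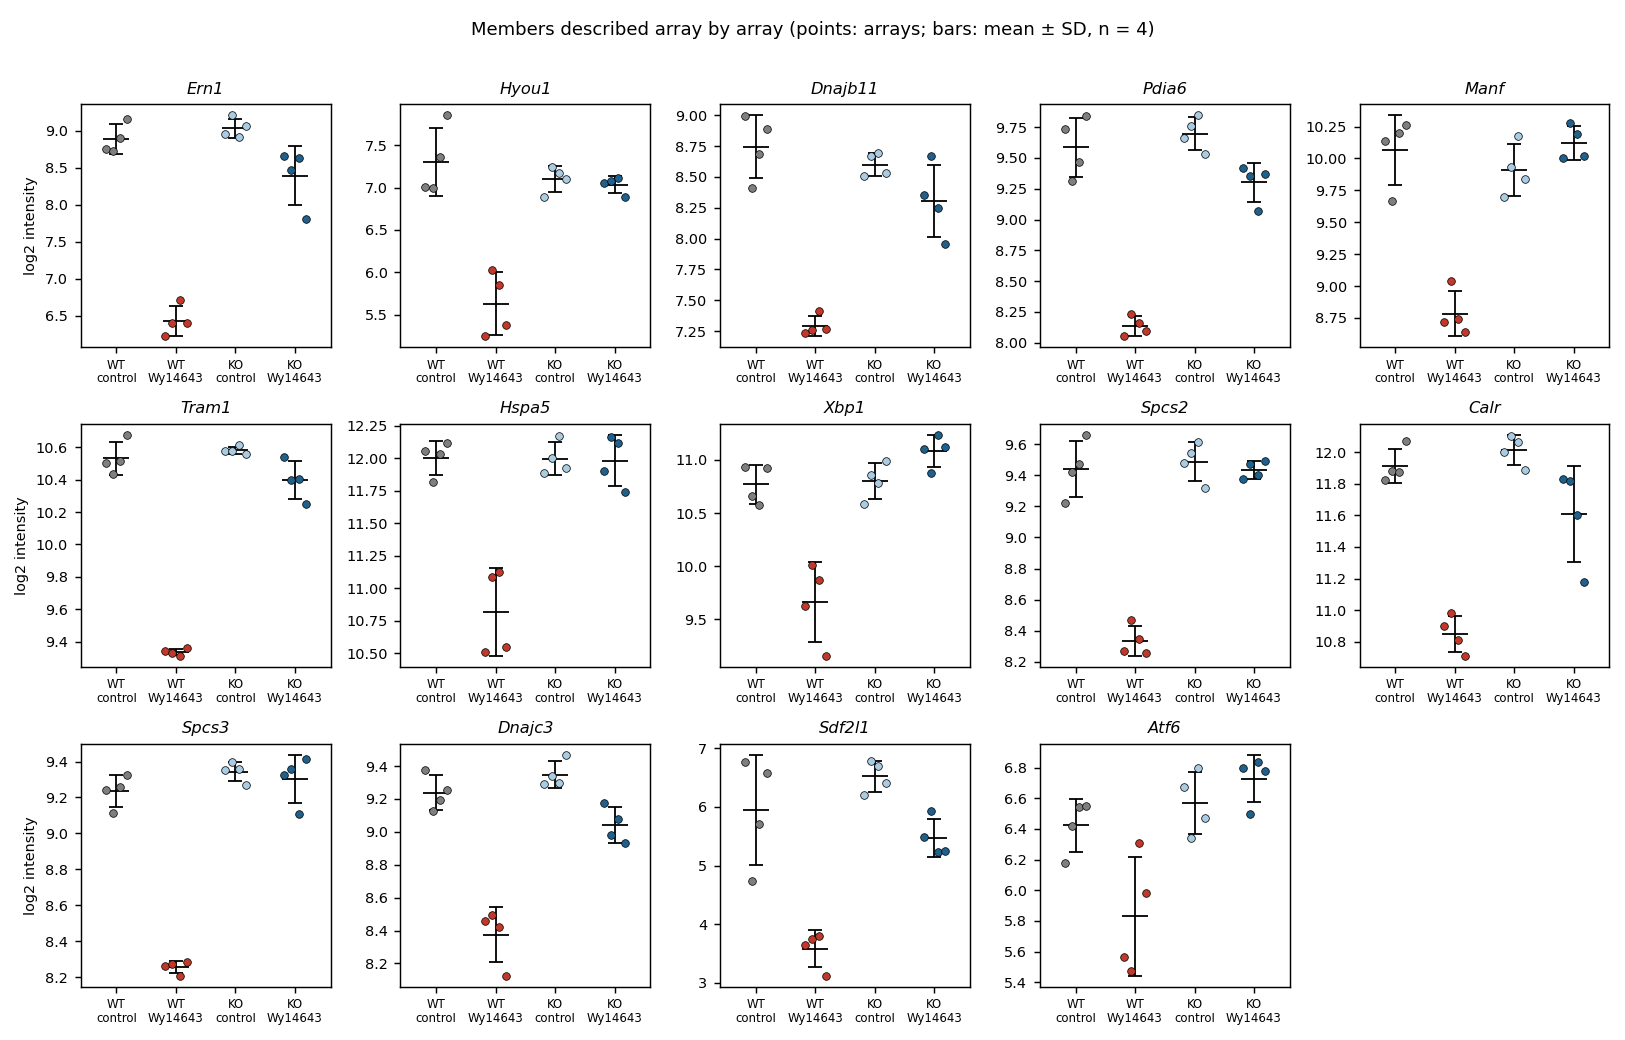
Log2 intensity of the 14 members given array by array, in wild type (WT) and knockout (KO) on control food or Wy14643, with points for arrays and bars for the mean ± SD of 4. For 13 of the 14 the 4 arrays of wild type on Wy14643 lie below all 12 others, as for 9.16% of all genes, and Atf6 is the exception. Most of the 14 were chosen as called decreases whose wild-type groups did not overlap, so their separation was largely set by that choice.

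Around the Sec61 channel, none of the 4 measured members of the signal recognition particle and its receptor (Srp9, Srp14, Srp72 and Srpr) was called, and their median wild-type difference was -0.05. Srpr, the receptor subunit that binds the particle, had 0.00 with a 95% interval of -0.21 to 0.21. Of the 9 translocon genes 4 were lower, with a median of -0.56.

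Tram1, a membrane protein beside the channel that helps chains insert, varied little within each group. It read 10.50, 10.44, 10.52 and 10.67 in wild type on control food, 9.34, 9.33, 9.31 and 9.36 on Wy14643, 10.58, 10.58, 10.61 and 10.56 in knockout on control food and 10.54, 10.40, 10.41 and 10.25 in knockout on Wy14643. The wild-type difference was -1.20 ± 0.08 (adjusted p = 5.5e-09). The other 3 called were Sec61a1, the channel subunit itself, at -0.78 ± 0.08 with all 6 probe sets lower, Sec63, which recruits BiP to the channel, at -0.65 ± 0.09 with all 5 probe sets lower, and Ssr4, a subunit of the translocon-associated protein complex, at -0.61 ± 0.10. Sec61b at -0.56 and Ssr1 at -0.44 passed on p but not on fold, and Ssr2, Ssr3 and Sec62 lay between -0.31 and -0.10.

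Signal peptidase, which removes the signal peptide, held 2 lower members of 5. Spcs2, an accessory subunit, read 9.22, 9.42, 9.47 and 9.66 in wild type on control food, 8.27, 8.47, 8.34 and 8.26 on Wy14643, 9.48, 9.54, 9.61 and 9.32 in knockout on control food and 9.37, 9.47, 9.40 and 9.49 in knockout on Wy14643. Spcs3, another subunit, read 9.24, 9.11, 9.26 and 9.33, then 8.26, 8.27, 8.21 and 8.29, then 9.35, 9.40, 9.36 and 9.27, and 9.33, 9.36, 9.11 and 9.42 in that order. For both, every treated wild-type array was below the other 12, and the knockout groups overlapped. The wild-type differences were -1.11 ± 0.10 (adjusted p = 1.78e-07) and -0.98 ± 0.08 (adjusted p = 1.09e-07). The catalytic subunits Sec11a and Sec11c had -0.09 and -0.26, and Spcs1 had 0.20, none of them called.

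In the oligosaccharyltransferase, which transfers the N-glycan, Rpn1 was lower at -0.85 ± 0.11 (adjusted p = 1.39e-05), with 5 of 6 probe sets lower. Ddost at -0.58 and Rpn2 at -0.41 passed on p but not on fold, and Ostc had -0.04. In ER-associated degradation 1 of 6 members was lower (16.7%, near the 15.9% of all genes with a mean above 6). This was Edem1, a lectin that delivers glycoproteins for degradation, at -0.65 ± 0.07 (adjusted p = 3.49e-06), although its other bright probe set gave 0.01. Syvn1, the ubiquitin ligase of the pathway, had -0.53, Herpud1 had -0.46, and the dim Derl3 had -0.31, while Sel1l and Derl1 had -0.15 and -0.13. None of these 5 passed.

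In knockout, 0 of 46 members were called by limma, against 0.0275% of all genes, all of them higher. At an unadjusted p under 0.05, 13 members were lower and 0 higher, against 5.04% and 5.3% of all genes, with the smallest unadjusted p for Ern1 (0.00124). Differences ranged from -1.05 for Sdf2l1 to 0.29 for Herpud1, the median was -0.09, and 36 of 46 were negative. The arrays of the knockout groups did not overlap for 11 members, against 6.38% of all genes and 595 of the 5170 with a mean above 6. Of those 5170, 395 were lower and 357 higher at an unadjusted p under 0.05 in limma. The 13 lower members included Sdf2l1, Ern1, Calr, Pdia6, Pdia3 and Dnajc3.

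The response differed between genotypes for 12 members (interaction, limma, the same thresholds), all more negative in wild type, which is also a comparison of the substrains. Of all genes, 4.62% were called in that direction and 5.38% in the other, and of genes with a mean above 6, 12.6% and 9.85%. The 12 were Ern1 (-1.81), Hyou1 (-1.61), Manf (-1.49), Xbp1 (-1.39), Hspa5 (-1.17), Dnajb11 (-1.16), Pdia6 (-1.06), Spcs2 (-1.05), Tram1 (-1.01), Spcs3 (-0.93), Sec61a1 (-0.68) and Ssr4 (-0.61). Sdf2l1 was not called, at -1.32 ± 0.46 (adjusted p = 0.0806), and neither was Calr, at -0.66 ± 0.18 (adjusted p = 0.0199). Without replicate 3 of wild type on Wy14643, 13 members were called, with Atf6 among them at -0.91 (adjusted p = 0.00559).

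Compared directly on Wy14643, 18 members had a lower level in wild type and 0 a higher one, against 7.13% and 8.12% of all genes, with a median of -0.45. Of the 5170 genes with a mean above 6, 16% were lower and 13.5% higher. The groups did not overlap for 30 members, against 27.7% of all genes and 2858 of those 5170. Without the array with pancreas transcripts the count was again 18 lower and 0 higher. The wild-type mice on Wy14643 are shared with the wild-type response, so these values are not independent of it. Pdia3 (-0.51) and Edem1 (-0.53), called in the wild-type response, stayed under 1.5-fold here, and Atf6 was called here only. On control food 0 of 46 members differed between genotypes by limma, against 0.544% of all genes (0.401% higher and 0.143% lower in wild type). At an unadjusted p under 0.05, 3 were higher in wild type (Sel1l at 0.33, Ostc at 0.24 and Sec11a at 0.18) and 0 lower, against 4.96% and 4.64% of genes.

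Markers of several cell types also moved in wild type on Wy14643. In that comparison with control food, 6.74% of all genes were called lower, and 15.9% of those with a mean above 6. Of 6 cholangiocyte and 8 T and NK cell markers, all with means below 6, 0 were called. The summed intensity of 8 hepatocyte markers was 59640 to 61660 in wild type on Wy14643 and 76650 to 80120 on control food, with 3 of 8 called lower, while Alb did not pass (-0.07). The sum of 12 Kupffer cell markers was 737.1 to 952.9 against 1387 to 1602, with 10 of 12 lower, and that of 11 stellate cell markers 1536 to 1798 against 2355 to 2586, with 4 lower. Endothelial markers summed to 1130 to 1240 against 1413 to 1639, with 2 of 10 lower and 1 higher. Their part in the decrease of the members was not tested, and in whole liver fewer cells of a type and less RNA per cell cannot be told apart. Plasma cells are also rich in these proteins. Of 10 plasma and B cell markers, Sdc1, which hepatocytes also express, had group means of 10.14 to 10.36, and the other 9 had group means of 0.92 to 2.53, where the array medians were 2.15 to 2.24. The sum of the 10 was 1111 to 1336 in wild type on Wy14643 and 1020 to 1281 on control food.

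A further 128 genes of the same pathways were listed, of which 125 were measured. In wild type 20 were lower (16%) and 13 higher (10.4%), with a median of -0.13. Of all genes 6.74% and 7.72% were called, and of those with a mean above 6, 15.9% and 12.4%. Of the 125, 88 had a mean above 6. The 16% and 10.4% are over all 125, dimmer genes included, and calls among the 88 alone were not counted. The counts per list below are to be read beside the shares of all genes and of those with a mean above 6. Folding enzymes and the lectin cycle held 10 lower and 3 higher of 31, with Ero1b, an oxidase that recharges the disulfide isomerases, at -1.22 ± 0.13, Pdia5 at -1.11 ± 0.17 and the prolyl isomerase Ppib at -1.03 ± 0.08. Mlec, a lectin of early glycans, was higher at 0.85 ± 0.22. ER-associated degradation held 3 lower and 0 higher of 20, namely Os9 (-1.24), Derl2 (-1.03) and Edem2 (-0.59).

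Signalling genes of the unfolded protein response held 3 lower and 2 higher of 15. Atf4, the transcription factor of the PERK arm, was lower at -1.02 ± 0.16. The increases were Mbtps2, a protease that cleaves ATF6, at 1.02 ± 0.15, and Creb3l3, an ER-anchored transcription factor of liver, at 0.61 ± 0.10. On control food, Creb3l3 exceeded its knockout level by 0.72 in wild type, and this was called too. Targeting and insertion genes outside the list of members held 0 lower and 4 higher of 20, among them Get4 (0.85), Emc8 (0.74) and Sgta (0.72), which serve tail-anchored and multipass membrane proteins.

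N-glycan assembly and transfer held 3 lower and 4 higher of 21. The lower genes, Magt1 (-0.99), Krtcap2 (-0.72) and Stt3a (-0.60), are subunits of the oligosaccharyltransferase, as is the higher Tusc3 (1.34), while Mpdu1 (1.29) and Alg14 (1.22) act earlier in glycan assembly. Of 18 COPII genes, which form the vesicles leaving the ER, Sec23b alone was called, at -1.08 ± 0.11. In knockout 0 of the 125 genes were called by limma, against 0.0275% of all genes. At an unadjusted p under 0.05, 8 were higher and 5 lower, against 5.3% and 5.04% of all genes.

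**Figure D4:**
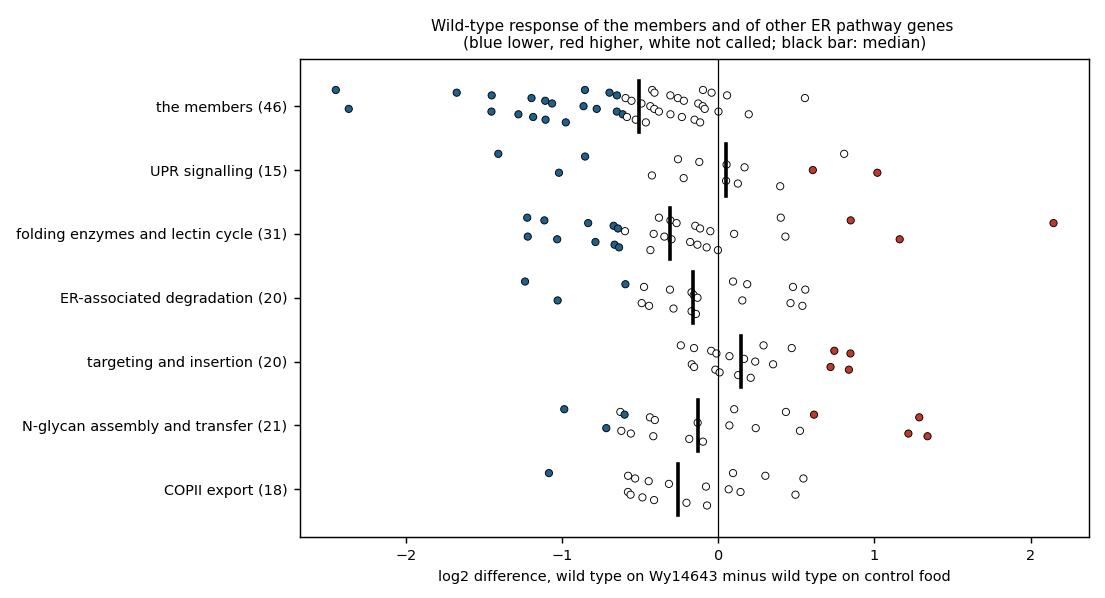
Log2 difference between Wy14643 and control food in wild type for the 46 measured members and for 6 lists of other ER pathway genes (number measured in brackets), with called genes filled, blue for lower and red for higher, and a bar at the median. The members lie mostly to the left, with a median of -0.51, whereas targeting and insertion genes have a median of 0.15.

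Promoter sequence was examined because the ER stress response element (ERSE), the sequence through which ATF6 and XBP1 act on chaperone genes, is written in the promoter itself. RefSeq promoters (GRCm38.p6) were at hand for 38 members (not for Hyou1, Manf, Atf6, Derl1, Sec61a1, Ssr2, Tram1, Spcs3, Sec11c and Ostc), and the 250 bases before each start were searched on both strands. The element, CCAAT and CCACG with 9 bases of any kind between them, was found in 9 of 38 members (23.7%) and in 35 of 27025 genes (0.13%). Because the members were chosen by function and the element is known from chaperone genes, this excess is no result of the expression values. The 9 included 4 of the 14 called members with a promoter (Hspa5, Dnajc3, Pdia6 and Calr) and 5 of the 22 measured members that were not called (Hsp90b1, Creld2, Canx, Derl3 and Syvn1). Below are the matches of the 4 that fell and, for comparison, 2 that were not called, with the ends of the element in capitals and 10 bases on each side. In Calr, and in the second match of Hsp90b1, the element lies on the opposite strand and reads CGTGG and ATTGG.
Hspa5, chr2:34772015-34772053 (+): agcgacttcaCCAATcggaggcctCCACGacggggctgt
Dnajc3, chr14:118937817-118937855 (+): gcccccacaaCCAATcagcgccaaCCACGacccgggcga
Pdia6, chr12:17266481-17266519 (+): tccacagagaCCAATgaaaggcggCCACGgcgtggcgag
Calr, chr8:84847065-84847103 (-): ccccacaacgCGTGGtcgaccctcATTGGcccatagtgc
Canx, chr11:50325790-50325828 (-): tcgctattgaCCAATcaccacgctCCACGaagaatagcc
Hsp90b1, chr10:86705523-86705666 (-): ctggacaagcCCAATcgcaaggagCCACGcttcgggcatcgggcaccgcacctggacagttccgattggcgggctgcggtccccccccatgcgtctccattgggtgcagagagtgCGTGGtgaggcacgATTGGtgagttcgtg

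The related ERSE-II, ATTGG and CCACG with 1 base between them, was found in Herpud1 alone among the members and in 0.037% of genes. It is shown because Herpud1 was not called in any comparison.
Herpud1, chr8:94386367-94386397 (+): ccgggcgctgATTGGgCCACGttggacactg

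The shorter CCACG, which is part of both elements, was present in 24 of 38 members (63.2%) and 31% of genes. CCAAT, also part of both (ATTGG read on the other strand), was present in 68.4% and 37.5%. Among genes on the array with a promoter, the shares were 40.7% for CCACG and 39.4% for CCAAT. TGACGTGG, bound by XBP1 and ATF6, was found in 0 members and 0.603% of genes, and its core TGACGT in 13.2% and 7.29%. Among genes on the array with a promoter, 0.865% held TGACGTGG and 9.63% held TGACGT. The direct repeat of AGGTCA with 1 base between the copies, bound by PPARα with its partner RXR, was found in Srp54a, which has no value here, and in 0.0407% of genes. These are matches of letters in a short window and do not show binding.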

How the data were processed

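A table of intensity values was deposited by the authors, for which the submitters' processing notes name GCRMA 2.20, a method that corrects background by probe sequence, normalizes quantiles and summarizes probes. The scale was inferred as linear, since array medians lay between 4.424 and 4.716 and the top values between 18110 and 22360, and log2 was taken with no offset. Quantile normalization hides any shift that most genes share. Of 45101 probe sets, 64 controls were left out. The platform annotation gave a single gene for 34945 of the rest, several genes for 932 and no name for 9160, and only the first kind was used for genes.

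All 16 arrays were fitted with 1 mean per group in limma 3.58.1 (R 4.3.3) with empirical Bayes moderation, giving 5 two-sided comparisons. The Benjamini-Hochberg adjustment ran over 45037 probe sets, and a call needed an adjusted p under 0.01 and a fold over 1.5. SE is the model's standard error with 4 arrays per group, whose number limits the precision. The fit was tested on simulated data.

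The members, lists and rules were chosen with earlier results of these data known. Array values are given for at most 12 called decreases with separate groups and a higher group mean of at least 6, up to 4 called members of each other comparison, and Hspa5, Xbp1, Atf6 and Ern1. The minimum of 6 was applied to the 2 groups compared. That reading was settled after the values were seen: taken over all groups, it would have put Sdf2l1, described here under another part of the rule, in the place of Dnajc3 and Fkbp11 in the place of Ppib. Other pathway genes were named by the same minimum, up to 3 per list and direction. The remaining members are given by their differences.

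Alternatives were filters at mean log2 above 4 or 6, centring, quantile normalization, an offset of 16, robust moderation with a trend, array weights, fits to the compared groups alone, replicate number as a block, an adjusted p under 0.05 without a fold, a test against 1.5-fold (treat), other summaries of probe sets, and leaving out each array. Proteins were not analysed here.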

Additional observations from a re-analysis of the deposited data

Results flagged for a closer look

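Several arrays lay far from the other 3 of their group, judged by the gap to the nearest of them as a share of the group's range (Dixon's criterion). This was so for 11 of 184 combinations of member and group (5.98%), and chance gives about 1 in 20. In knockout on Wy14643, replicate 4 was lowest for Hsp90b1 (10.76 against 11.12 to 11.19, gap 0.841), Ssr1 (9.26 against 9.44 to 9.47, 0.846) and Sec11c (7.75 against 8.29 to 8.30, 0.987). In the same group replicate 2 was lowest for Atf6 (0.839) and replicate 3 for Sec61b (0.934). In wild type on Wy14643, replicate 2 was highest for Canx (0.866), replicate 4 highest for Spcs1 (0.843) and replicate 1 lowest for Srp72 (0.949). In wild type on control food, replicate 3 was highest for Herpud1 (10.60 against 10.02 to 10.11, 0.846) and replicate 4 for Sec62 (0.8291). In knockout on control food, replicate 2 was highest for Ssr1 (0.903).

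The 5 exocrine pancreas markers were highest on replicate 3 of wild type on Wy14643, with gaps of 0.981 for Cpa1, 0.975 for Cel, 0.959 for Prss2, 0.914 for Ctrb1 and 0.837 for Cela1. Cela1 was lower on the other 3 arrays of that group (6.49 to 6.82) than on any array of the other groups, where the means were 9.33 to 9.47.

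The response of 12 members differed between genotypes by the interaction test in limma. The difference of the responses was -1.81 for Ern1, -1.61 for Hyou1, -1.49 for Manf, -1.39 for Xbp1, -1.17 for Hspa5, -1.16 for Dnajb11, -1.06 for Pdia6, -1.05 for Spcs2, -1.01 for Tram1, -0.93 for Spcs3, -0.68 for Sec61a1 and -0.61 for Ssr4.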

How the results depend on the processing

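Over 29 other settings, the wild-type differences of the 14 members given by array were compared in 405 values, of which 391 kept their direction and side of the threshold. Atf6 turned positive with the mean of its probe sets (0.013) and with the second brightest (0.53), and passed in 7 settings. Xbp1, Calr and Dnajc3 no longer passed under treat, nor Tram1 (-0.55) and Dnajc3 (-0.58) by the second brightest probe set. In the interaction, Ern1 and Manf alone of the 12 passed under treat. By the second brightest probe set, Ern1, Pdia6, Tram1 and Ssr4 lost their calls in the interaction and between genotypes on Wy14643, where Dnajc3 and Atf6 lost theirs too. No setting called a member higher in wild type, or any member in knockout or between genotypes on control food.

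The counts of calls depended on the threshold. With an adjusted p under 0.05 and no fold, 30 members were lower in wild type and 19 were called in the interaction, and 41 other pathway genes were lower and 26 higher. Under treat against 1.5-fold, these were 10, 2, 7 and 4, and 8 members were called between genotypes on Wy14643. Among genes with a mean log2 above 6, 7 other pathway genes were higher. These thresholds ask for a smaller or larger change, or test fewer genes, by construction. The shares of all genes called under them were not counted, and the shares given earlier belong to the main thresholds.

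Without each array in turn, 18 to 22 members were lower and 0 higher in wild type, 17 to 18 were called between genotypes on Wy14643, 11 to 14 in the interaction, and 0 in the other comparisons. Other pathway genes gave 18 to 22 lower and 10 to 13 higher. Of the 19 members lower in wild type, 18 were called in all 16 of these fits, and Ssr4 was lost without replicate 2 of wild type on Wy14643 or replicate 4 of wild type on control food. Between genotypes on Wy14643, Ssr4 was lost without replicate 4 of knockout on Wy14643 and Dnajc3 without replicate 4 of wild type on Wy14643. In the interaction, 11 of 12 held in every fit, and Ssr4 held in 11 of 16. Within wild type on control food, replicate 2 was the lowest array for 30 of 46 members and replicate 4 the highest for 32. Without replicate 2, 22 members were lower.

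Arrays of the same replicate number had correlations of deviations between -0.12 and 0.19 over 24 pairs, of which 6 were over 0.1. Arrays of unlike number were not compared, so whether the numbers pair the arrays cannot be told. With the replicate number as a block, 20 members were lower and 0 higher in wild type, 18 were called between genotypes on Wy14643, 12 in the interaction and 0 in the other comparisons, with 20 other pathway genes lower and 12 higher. Most probe sets were dim (12877 of 45037 had a mean log2 above 4), where folds rest on the background step, but 44 members lay above 6.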
